A study of Neurospora crassa with 24 samples.

Results

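The ∆*ve-1* ∆*wc-1* double mutant of *Neurospora crassa* was compared with the ∆*ve-1* single mutant, both in constant light, to see what the loss of the photoreceptor WC-1 changed where the velvet protein VE-1 was already missing. The comparison was made of the 6 light libraries that the labels give to these strains, 3 of the double mutant and 3 of the velvet mutant, of 24 libraries in all. Both groups carry the deletion of *ve-1*, and the double mutant adds the deletion of *wc-1*. The other libraries came from the same strains in darkness, and from ∆*wc-1* and wild-type strains in light and in darkness, with 3 libraries per group. All tissue was harvested 1 day before fertilization from plates of a nitrogen-poor crossing medium on which protoperithecia, the unfertilized female structures, form. Tissue of biological replicates was combined for RNA extraction, and how the pools relate to the libraries is not stated. The p-values given here therefore rest on a spread between libraries that may in part be technical. Unless said otherwise, that spread was estimated over all 24 libraries together, not over the 6 compared alone.

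WC-1 is the blue-light photoreceptor of *N. crassa*. With its partner WC-2 it forms the White Collar complex, a transcription factor that switches on light-responsive genes, including the second photoreceptor gene *vvd*, the clock gene *frq* and the *al* genes of carotenoid synthesis. VE-1 belongs to the velvet proteins, fungal regulators that tie light to the choice between asexual spores (conidia) and sexual development.

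The count over *ve-1* (NCU01731, chromosome II, 2607929 to 2611456) went with the labels. It was 5.18, 3.83 and 8.39 TMM-scaled CPM (counts scaled to library size) in the ∆*ve-1* light libraries and 1.60, 4.40 and 7.81 CPM in those labelled double mutant, against 238, 176 and 286 CPM in wild-type light. The count over *wc-1* (NCU02356, chromosome VII, 2767393 to 2773846) went against them. It was 49.7, 11.4 and 9.21 CPM in ∆*ve-1* and 15.5, 25.8 and 113 CPM in the libraries labelled double mutant, so the groups overlapped and the mean was not lower where the gene should be deleted (log2 fold change 1.13 ± 0.75 SE, adjusted p = 0.758). The fold change fell to -0.19 without library 3 of the double mutant. In light, *wc-1* was also counted in the libraries labelled ∆*wc-1* (12.7, 32.1 and 30.05 CPM) at a level that overlapped the wild type (42.1, 7.12 and 41.2 CPM). The 3 light libraries of the ∆*ve-1* ∆*wc-1* strain are therefore called below the libraries labelled double mutant. Its partner gene *wc-2* was 88.1, 52.3 and 47.2 CPM in ∆*ve-1* and 122, 95.0 and 183 CPM in the libraries labelled double mutant, groups that did not overlap, but the difference did not pass the test (1.09 ± 0.35, adjusted p = 0.246).

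The 6 libraries held 35793109 to 41430509 counts. They were not alike within a group: the 10 most abundant genes took 8.62, 15.2 and 19.4% of the counts in ∆*ve-1* libraries 1, 2 and 3, and 9.13, 21.3 and 7.43% in the libraries labelled double mutant. Library 3 of the latter in light was closer to library 1 of that strain in darkness (Spearman correlation 0.992 across genes) than to libraries 1 and 2 of its own group (0.898 and 0.905). Libraries 2 and 3 of ∆*ve-1* correlated at 0.983, and library 1 with them at 0.928 and 0.889. That library 1 correlated higher with libraries 1 and 3 labelled double mutant in light (0.945 and 0.938). Library 2 labelled double mutant in light correlated at 0.940 with ∆*ve-1* light library 2 and at 0.971 with ∆*ve-1* dark library 1. Both values were above those with its own group (0.894 and 0.905), so the libraries did not group by strain throughout. These values are across genes, which are not independent replicates. Among counts from 100 to 1000, more were even than odd in every library, with 61.6, 64.7 and 71.2% even in ∆*ve-1* and 62.7, 81.3 and 60.4% in the other strain. The part of this excess in the results was not tested beyond a fit with it as a covariate, which gave 184 DEGs in place of 66.

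Of 9412 genes tested, 66 (0.701%) were DEGs, that is, genes past an adjusted p of 0.05 whose log2 fold change exceeded 1 in size. In the libraries labelled double mutant, 27 genes were lower (0.287% of those tested) and 39 were higher (0.414%). In all 66 the 3 libraries of one strain lay outside the range of the other, which was true of 952 genes tested (10.1%), 487 of them higher (5.17%) and 465 lower (4.94%). An unadjusted p under 0.05 was reached by 776 genes.

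Classical targets of light were among the genes that fell. *vvd* (NCU03967, chromosome VI, 2268533 to 2271812), which encodes the small flavin photoreceptor that restrains the White Collar complex, was 1165, 519 and 426 CPM in ∆*ve-1* and 4.24, 13.7 and 39.5 CPM in the libraries labelled double mutant. The highest of the latter was more than an order of magnitude below the lowest ∆*ve-1* library, and the log2 fold change was -5.20 ± 0.78 (adjusted p = 0.00146). *frq* (NCU02265, chromosome VII, 3131640 to 3136464), the central component of the circadian clock, was 324, 228 and 173 CPM against 11.7, 19.3 and 37.0 CPM. Here too the groups stood far apart (-3.42 ± 0.47, adjusted p = 0.000859). In both genes the libraries labelled double mutant had the same order, with library 1 lowest and library 3 highest, and library 3 was also the one with the most counts over *wc-1*. The genes *al-1* and *al-2*, described next, did not share this order, and a link with the counts over *wc-1* was not tested.

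Among the carotenoid genes, *al-1* and *al-2* fell. *al-1* (NCU00552, chromosome I, 8029857 to 8032395), which encodes phytoene desaturase, was 459.9, 95.6 and 204 CPM in ∆*ve-1* and 33.9, 5.28 and 7.61 CPM in the libraries labelled double mutant. The fall was -4.02 ± 0.88 (adjusted p = 0.0306) and the call was lost without ∆*ve-1* library 1 (adjusted p = 0.113) or 3 (0.0755) and without library 2 (0.140) or 3 (0.162) of the other strain. *al-2* (NCU00585, chromosome I, 7920916 to 7924255), which encodes phytoene synthase, was 239.8, 218 and 318 CPM against 43.0, 104 and 56.2 CPM. Its log2 fold change was -1.93 ± 0.40 (adjusted p = 0.0203), and this call was lost without ∆*ve-1* library 3 (0.124) or library 1 (0.116) or 3 (0.113) of the other strain. Of the 5 carotenoid genes listed, these 2 were DEGs and 3 were not, 1 of which had a positive fold change, and the list median was -1.72, against 0.05 over all genes tested. *al-3*, the geranylgeranyl diphosphate synthase gene, was 258, 64.8 and 85.6 CPM against 64.2, 25.8 and 34.1 CPM and did not pass the test (-1.72 ± 0.63, adjusted p = 0.365). Of the 12 genes of light sensing and the clock, *vvd* and *frq* fell and the remaining 10 were not DEGs. The list median was 0.33, since *wc-1*, *wc-2* and the phytochrome genes had positive fold changes that did not pass the test.

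**Figure D1:**
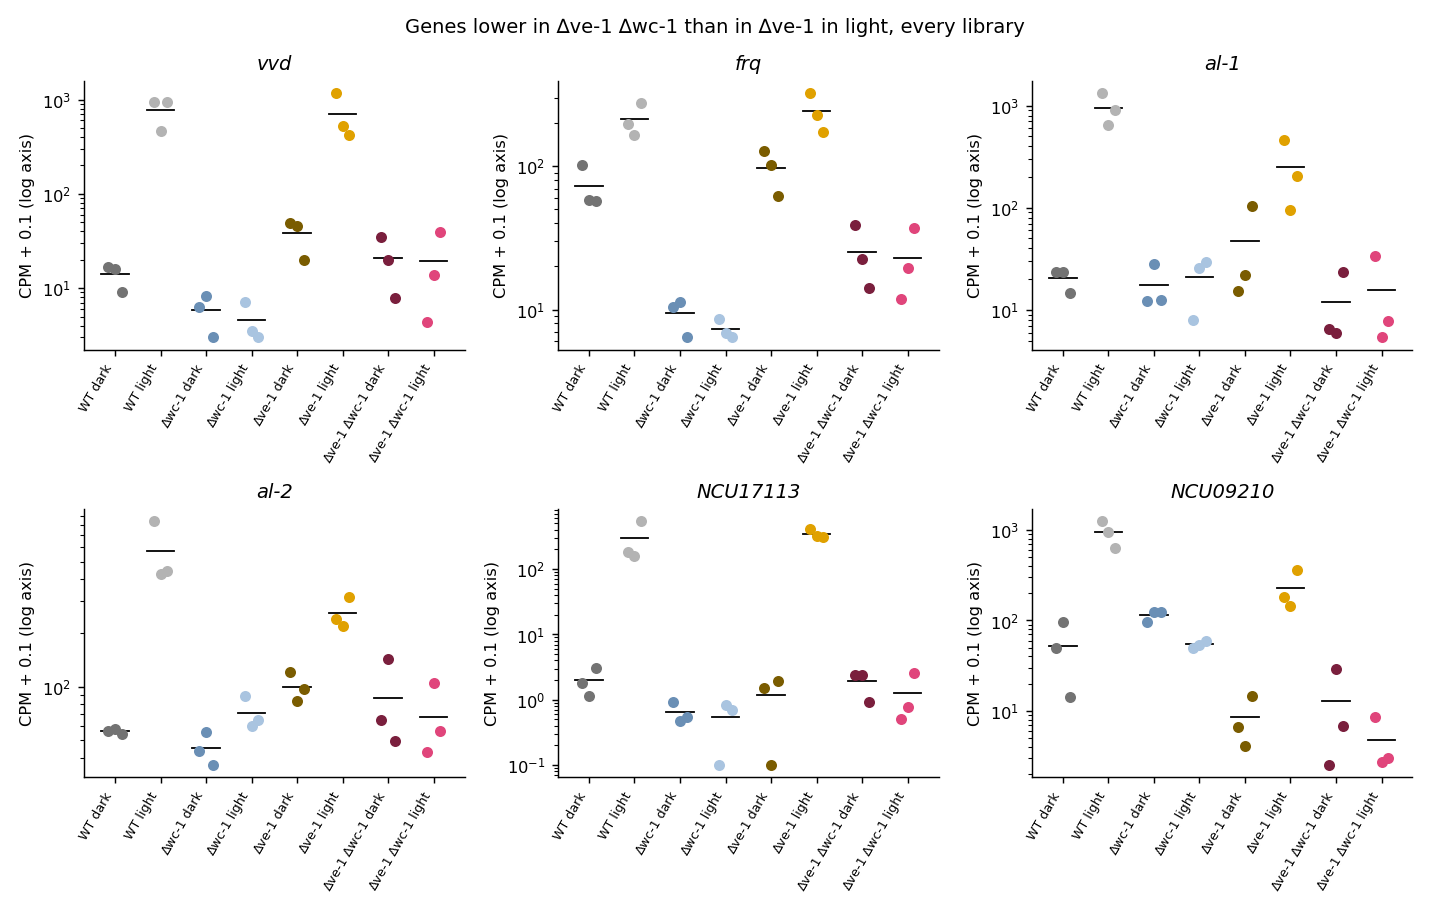
CPM (log axis, 0.1 added) of 6 genes that were lower in the libraries labelled double mutant than in ∆*ve-1* in light, 1 point per library, with the mean of 3 as a bar, in all 8 groups. In each gene, as in all 27 that fell, the ∆*ve-1* light points lie above every point labelled double mutant in light. The latter overlap the points of that strain in darkness in 26 of the 27.

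The largest falls were in genes without a known product. NCU17113 (chromosome VI, 2278124 to 2279737) was 415, 319.6 and 311 CPM in ∆*ve-1* and 0.415, 0.670 and 2.46 CPM in the libraries labelled double mutant (-8.18 ± 1.14, adjusted p = 0.000859). Its ∆*ve-1* values lay close together, and those of the other strain were all below 3 CPM. The gene model NCU03969 (2278121 to 2278660) lies within the same stretch and was 10.9, 10.3 and 11.97 CPM against 0.208, 0 and 0.313 CPM (-5.87 ± 1.03, adjusted p = 0.00512). The counting used strand, but because the models overlap the reads of this pair may not be fully separable. NCU16408 (chromosome I, 6050368 to 6051530) was 4.46, 24.9 and 62.7 CPM in ∆*ve-1*, with a wide spread, and 0.125, 0 and 0.0834 CPM in the libraries labelled double mutant (-8.56 ± 1.32, adjusted p = 0.00171).

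Genes annotated as enzymes also fell, and are given one by one because no list of them was tested. NCU09210 (chromosome I, 5849601 to 5852150), annotated as a dyp-type peroxidase, a heme enzyme family known from dye degradation, was 181, 144 and 360.0 CPM in ∆*ve-1* and 8.56, 2.60 and 2.94 CPM in the libraries labelled double mutant (-5.60 ± 0.87, adjusted p = 0.00184). Its chromosomal neighbour *gao-1* (NCU09209, 5845361 to 5847904), annotated as galactose oxidase, was 38.1, 34.4 and 71.8 CPM against 3.16, 5.78 and 2.94 CPM (-3.61 ± 0.65, adjusted p = 0.00678). In both genes ∆*ve-1* library 3 was highest and the groups were well separated. NCU07434, a short-chain dehydrogenase/reductase, was 174, 122 and 155 CPM against 6.77, 4.94 and 10.6 CPM (-4.33 ± 0.78, adjusted p = 0.00680). *mig-3* (NCU04452), annotated as a 12-oxophytodienoate reductase, was 166, 137 and 226 CPM against 33.0, 8.96 and 8.502 CPM (-3.39 ± 0.55, adjusted p = 0.00251). Library 1 was the highest of those labelled double mutant for *mig-3*, and still below all 3 ∆*ve-1* libraries. NCU01926, with no product given in the sources used here, was 177, 105 and 191 CPM against 11.3, 4.94 and 15.9 CPM (-3.88 ± 0.71, adjusted p = 0.00708). NCU01060 was 250.5, 639 and 974 CPM against 44.1, 65.1 and 157 CPM (-2.80 ± 0.64, adjusted p = 0.0425), and was called neither without ∆*ve-1* library 2 (0.118) or 3 (0.227) nor without library 1 (0.160) or 2 (0.174) of the other strain.

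The remaining genes that fell, named here after their values were seen, had smaller changes. *osb-4* (NCU02190), an oxysterol-binding protein gene, was 155, 212 and 265 CPM against 36.8, 42.1 and 29.4 CPM (-2.54 ± 0.37, adjusted p = 0.00113). *gh71-2* (NCU06010), annotated as a mutanase, an enzyme that cuts alpha-glucan, fell by 2.30 on the log2 scale, *ppy-4* (NCU07585), annotated as siroheme synthase, by 1.62, and *fpo-1* (NCU00236), a flavoprotein oxygenase gene, by 1.60. The 66 DEGs held 6 pairs of genes that were direct neighbours among the genes tested, and how many such pairs to expect was not computed. In 5 of them, NCU14012 with NCU01926, *gao-1* with NCU09210, *gh47-3* with NCU01060, NCU10011 with NCU10012, and NCU03969 with NCU17113, both genes fell, and in the remaining pair both rose. NCU03969 with NCU17113, and the pair that rose, are overlapping gene models whose reads may not be fully separable.

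These genes were compared with the light response of the wild type, whose libraries enter the fit through its filter, scaling and shared spread but not the fold changes between the mutants. Of the 27 genes that fell, 23 were also DEGs raised by light in the wild type and none was lowered, where 5.13% of all genes tested were raised and 6.23% lowered. Of the 39 genes that rose, 25 were lowered by light in the wild type and none was raised. Read the other way, the 483 genes raised in wild-type light had a median log2 fold change of -0.50 in the libraries labelled double mutant against ∆*ve-1*, and 400 of the 483 had a negative value. The 586 genes lowered in wild-type light had a median of 0.65, and 517 had a positive value, beside a median of 0.05 over all genes tested. Much of this was also seen without light. The same contrast in darkness gave medians of -0.34 for the 483 genes and 0.45 for the 586, beside 0.07 over all genes tested. The shift in light was not the same in every library. Against the ∆*ve-1* mean, the 483 genes had a median of -1.04, -0.08 and -0.79 in libraries 1, 2 and 3 labelled double mutant, and the 586 genes 0.80, 0.25 and 0.65. The median of the 483 genes was -0.84 without library 2 of that strain and -0.33 without ∆*ve-1* library 3. Library 2, with the smallest shift, was the one in which the 10 most abundant genes held the largest share (21.3%), and the wild-type libraries also differed in this share, with 18.7 to 27.1% in light and 6.41 to 9.31% in darkness. With that share as a covariate, 52 genes fell, of which 35 were raised in wild-type light, and 79 rose, of which 42 were lowered.

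**Figure D2:**
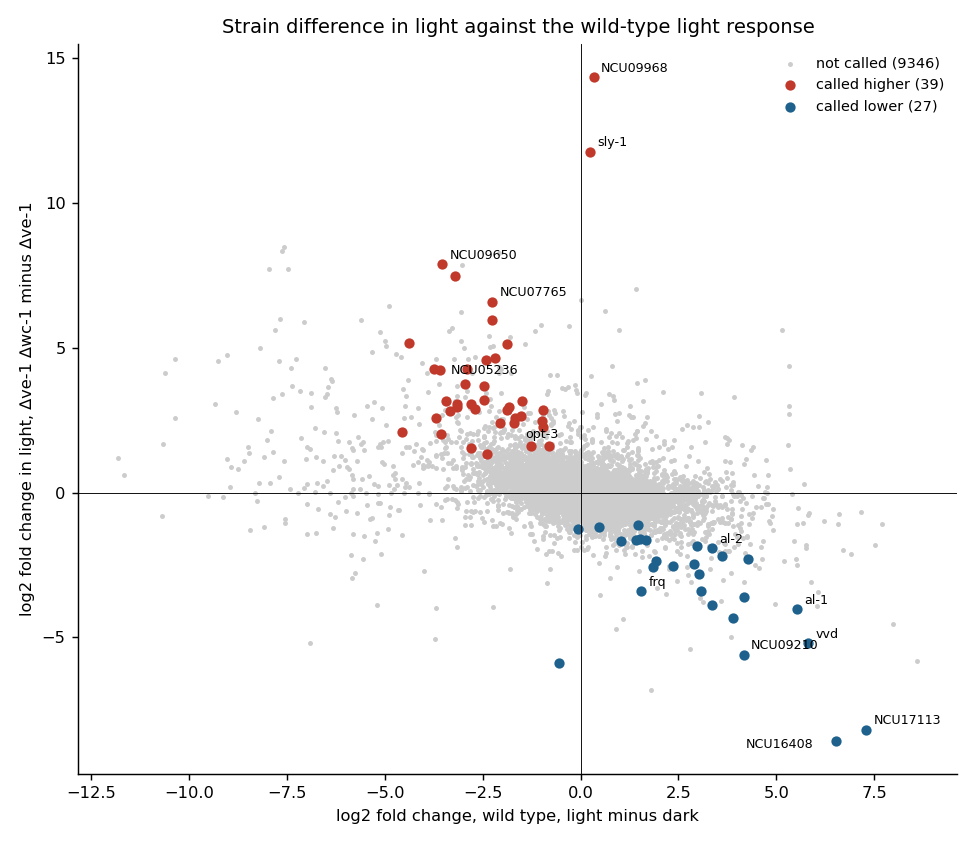
Each point is a gene tested (9412), with the log2 fold change of wild-type light against darkness on the x axis and that of the libraries labelled double mutant against ∆*ve-1* in light on the y axis. Genes that fell (27, blue) lie mostly at the lower right, where 23 of them are also raised by light in the wild type, genes that rose (39, red) lie mostly at the upper left, and NCU09968 and *sly-1*, with no counts in ∆*ve-1* in light, lie at the top at fitted values that depend on the prior count.

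The libraries labelled ∆*wc-1*, which enter the fit in the same way and in which *wc-1* was also counted, lay on the same side of the wild type for most of these genes. Of the 27 genes that fell, 24 had all 3 light libraries labelled ∆*wc-1* below all 3 wild-type light libraries (10.8% of all genes tested), and of the 39 that rose, 31 had them all above (12.1%). *vvd* was 7.11, 3.45 and 2.90 CPM in the light libraries labelled ∆*wc-1* against 938, 463 and 941 CPM in the wild type. *frq* was 8.45, 6.80 and 6.29 CPM against 196, 164 and 278 CPM. For both genes the level in ∆*ve-1* light was in the range of wild-type light or close to it, and every library labelled double mutant was below the wild type. Those libraries lay above all libraries labelled ∆*wc-1* in light in all 3 for *frq*, and in libraries 2 and 3 for *vvd*.

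In darkness few genes passed the test. The same contrast of the dark libraries gave 2 DEGs (0.0212%), both of which also rose in light, and 434 genes at an unadjusted p under 0.05. DESeq2 called 22 genes there and limma-voom with quality weights 117. Of the 27 genes that fell in light, 21 had a negative fold change in darkness, with a median of -0.52, and none was a DEG. Of the 39 that rose, 33 had a positive one, with a median of 1.15, and 2 were DEGs. Over all 9412 genes tested, 6440 had the same sign in light and in darkness, so the signs alone say little about these genes. Without overlap between the strains in darkness, 10 of the 27 were lower (4.24% of all genes tested) and 13 of the 39 higher (5.20%). Light and dark libraries were then set side by side within each strain, without a test of how the strains differ in this. In ∆*ve-1*, whose light libraries also enter the choice of the genes, 19 of the 27 had all 3 light libraries above all 3 dark ones (9.21% of all genes tested), and 30 of the 39 had them all below (6.71%). In the libraries labelled double mutant, light and dark overlapped for 26 of the 27 and for 38 of the 39, and for 9237 of the 9412 genes tested (0.850% were higher and 1.01% lower in light without overlap). *frq* was an example with no overlap in darkness either, at 128, 102 and 62.4 CPM in ∆*ve-1* in darkness against 38.8, 22.4 and 13.98 CPM in the libraries labelled double mutant in darkness, a difference that did not pass the test (-1.96 ± 0.44, adjusted p = 0.265).

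The test of the difference between the strain effects in light and in darkness called 4 genes (0.0425%). NCU17113 was 1.44, 0 and 1.87 CPM in ∆*ve-1* in darkness and 2.26, 2.34 and 0.828 CPM in the libraries labelled double mutant in darkness, so that the strains overlapped in darkness (difference of log2 fold changes -8.90 ± 1.39, adjusted p = 0.0253). NCU09210 was 6.56, 3.97 and 14.6 CPM against 2.41, 28.8 and 6.64 CPM in darkness (-6.18 ± 1.10, adjusted p = 0.0480). NCU09650 and *opt-3*, which rose in light, had negative fold changes in darkness that did not pass the test, and are described with the genes that rose. For *vvd* this test did not pass (-4.32 ± 0.97, adjusted p = 0.189), nor for NCU16408 (-8.62 ± 1.60, adjusted p = 0.0507).

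Of the 39 genes that rose, 25 carry no name in the sources used here, as do 16 of the 27 that fell. Over all genes tested, 8264 of 9412 carry none, so a missing name was not particular to the DEGs. NCU05236 (chromosome IV, 5662631 to 5664417) was even within each strain, with 19.5, 18.2 and 21.1 CPM in ∆*ve-1* and 384, 418 and 302 CPM in the libraries labelled double mutant (4.23 ± 0.63, adjusted p = 0.00135). NCU02486 was 2.26, 1.19 and 2.33 CPM against 54.2, 25.2 and 32.1 CPM (4.27 ± 0.60, adjusted p = 0.000859), and NCU09171 was 1.35, 0.270 and 1.48 CPM against 23.5, 26.2 and 10.3 CPM (4.28 ± 0.65, adjusted p = 0.00150). These 3 genes were called without any one of the 6 libraries, and wild-type light lowered all of them, to 27.6, 3.19 and 6.62 CPM on average from 333, 43.2 and 49.2 CPM in darkness. With edgeR on the 6 libraries alone NCU05236 and NCU02486 were still called, and NCU09171 was not (adjusted p = 0.0750).

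A further set rose through values that differed widely between libraries. NCU09650 (chromosome IV, 68362 to 68930) was 0.193, 0.539 and 0.466 CPM in ∆*ve-1* in light and 12.5, 106 and 161 CPM in the libraries labelled double mutant (7.88 ± 1.46, adjusted p = 0.00800). In darkness it was 319, 202 and 59.8 CPM in ∆*ve-1* and 21.4, 99.4 and 9.79 CPM in the other strain, so ∆*ve-1* in light was the low group of these 4 (difference of log2 fold changes 10.04 ± 1.81, adjusted p = 0.0480). Its call in light was lost without ∆*ve-1* library 1 (adjusted p = 0.0595), 2 (0.0628) or 3 (0.0755). NCU07765 was 0.502, 0.378 and 1.01 CPM against 4.32, 45.3 and 129.8 CPM (6.59 ± 1.32, adjusted p = 0.0152), and NCU09372 was 5.54, 9.87 and 9.52 CPM against 33.1, 289 and 554 CPM (5.14 ± 0.93, adjusted p = 0.00680). *apr-12* (NCU09484) was 1.74, 1.51 and 1.40 CPM against 7.25, 10.6 and 41.8 CPM (3.68 ± 0.68, adjusted p = 0.00800). In these 4 genes library 1 was the lowest and library 3 the highest of the libraries labelled double mutant. NCU07765 lost its call without any 1 of the ∆*ve-1* libraries (0.0882, 0.125 and 0.0882) or without library 3 of the other strain (0.0591). NCU09372 lost it without any 1 of the ∆*ve-1* libraries (0.0523, 0.0518 and 0.0556), and *apr-12* without ∆*ve-1* library 2 (0.0693) or 3 (0.0787) or library 3 of the other strain (0.0671).

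The remaining genes of large change that rose have annotated products. *wsc2-1* (NCU00309), annotated as a WSC domain protein, a domain of cell-surface proteins, was 16.4, 19.9 and 17.9 CPM in ∆*ve-1* and 44.1, 132 and 308 CPM in the libraries labelled double mutant (3.16 ± 0.54, adjusted p = 0.00426). *cuo-3* (NCU05518), a peroxisomal copper amine oxidase gene, was 31.9, 28.9 and 25.8 CPM against 539, 115 and 113 CPM (3.15 ± 0.51, adjusted p = 0.00251). *mcr-1* (NCU00052), annotated as a methylacyl-CoA racemase, an enzyme of branched fatty acid breakdown, was 0.715, 1.13 and 3.34 CPM against 7.52, 17.2 and 18.1 CPM (3.06 ± 0.53, adjusted p = 0.00426). *wsc2-1* and *mcr-1* were highest in library 3 labelled double mutant and *cuo-3* in library 1, and each was called without any one of the 6 libraries compared. With edgeR on these 6 libraries alone, *wsc2-1*, *cuo-3* and *mcr-1* were not called (adjusted p = 0.129, 0.164 and 0.171). Nor were they with edgeR on the 12 libraries of both mutants (0.0719, 0.0595 and 0.0595).

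Of the genes that rose by less, the following were picked after their values were seen. The cell wall protein genes *acw-8* (NCU07277, 2.96 ± 0.58) and *ncw-2* (NCU01752, 2.48 ± 0.41), the terpenoid gene *tpd-1* (NCU00175, 3.05 ± 0.45) and *trg-4* (NCU09169, 2.03 ± 0.38), annotated as a transcriptional regulator, had adjusted p = 0.0133, 0.00271, 0.00135 and 0.00800. *trg-4* was even within groups, at 35.5, 26.3 and 35.5 CPM against 141, 127 and 129.995 CPM. The oligopeptide transporter gene *opt-3* (NCU07894) was 94.3, 80.6 and 58.1 CPM against 796, 163 and 270.5 CPM (2.40 ± 0.45, adjusted p = 0.00806). The ammonium transporter gene *tam-2* (NCU05843) was 10.9, 12.7 and 10.3 CPM against 109, 30.1 and 40.0 CPM (2.40 ± 0.42, adjusted p = 0.00510), and *mfs-21* (NCU07140), annotated as an allantoate transporter, rose by 1.61 ± 0.30 (adjusted p = 0.00806). Library 1 labelled double mutant was the highest for *opt-3* and *tam-2*. In darkness *opt-3* was 289.7, 256 and 398 CPM in ∆*ve-1* and 162, 135 and 171 CPM in the other strain, the reverse order with no overlap, and the difference between light and darkness passed the test (3.41 ± 0.62, adjusted p = 0.0480). The RNA-dependent RNA polymerase gene *rrp3* (NCU08435), of a family known for small-RNA silencing, was 47.1, 54.0 and 42.1 CPM against 119, 152 and 91.0 CPM (1.34 ± 0.27, adjusted p = 0.0156).

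**Figure D3:**
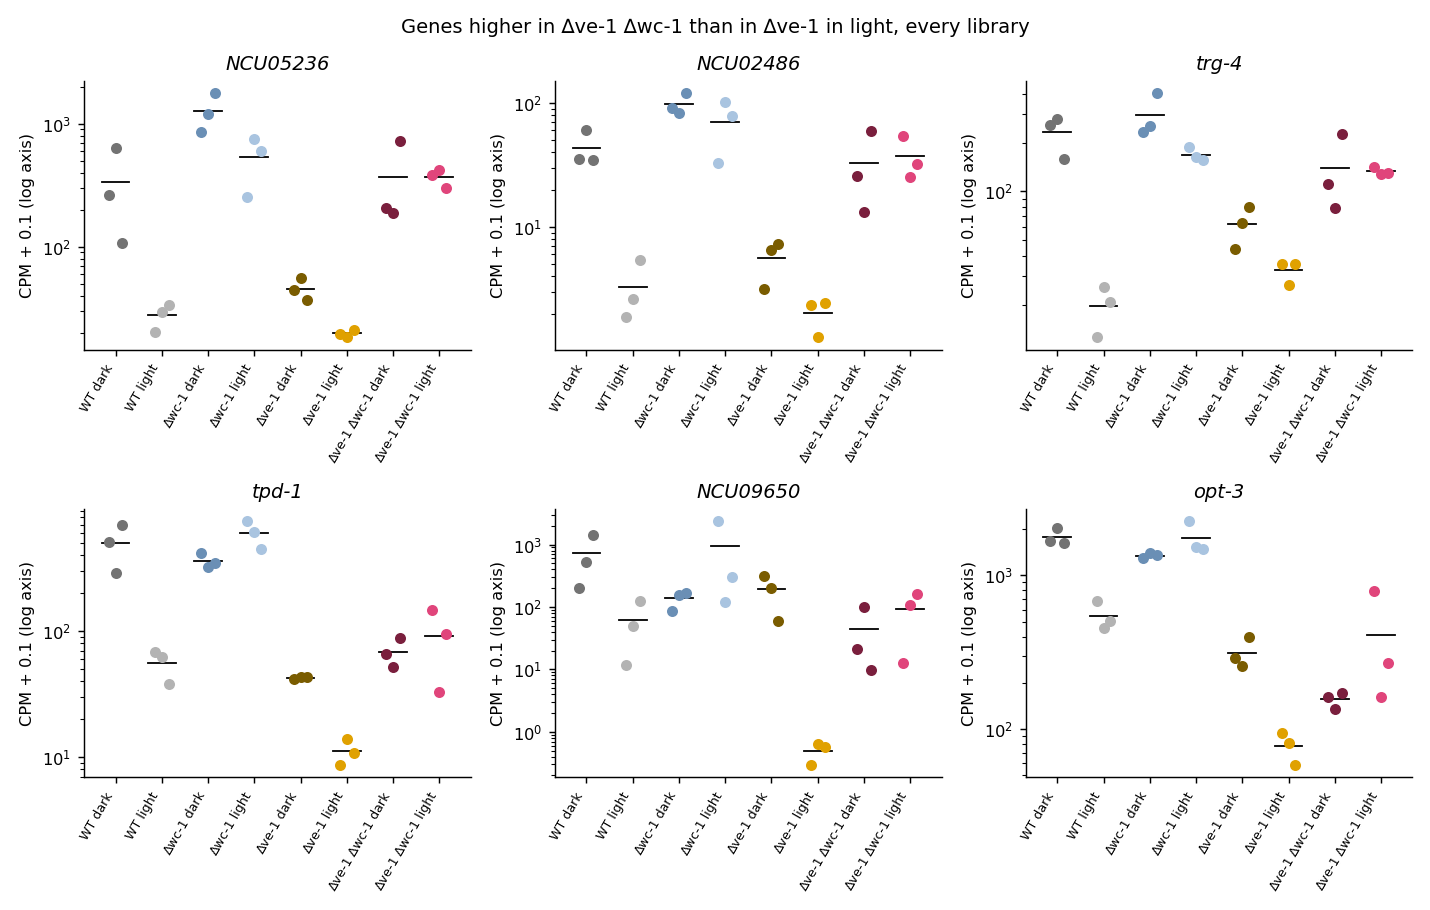
CPM (log axis, 0.1 added) of 6 genes that were higher in the libraries labelled double mutant than in ∆*ve-1* in light, 1 point per library, with the mean of 3 as a bar, in all 8 groups. The 6 genes were picked from the 39 that rose, all of which have ∆*ve-1* in light below the libraries labelled double mutant in light. In each of the 6, ∆*ve-1* in light has the lowest 3 points of the 4 groups of these strains. Of the 39, 9 overlap between light and darkness in ∆*ve-1*. *opt-3* and NCU09650 are lower in the libraries labelled double mutant than in ∆*ve-1* on average in darkness.

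A pair of genes that rose had no counts at all in ∆*ve-1* in light. NCU09968 (chromosome VI, 309546 to 315476) and *sly-1* (NCU09969, 314113 to 320071), whose product is annotated as the transposase of the DNA transposon Sly1-1, are overlapping gene models, so their reads may not be fully separable. NCU09968 had no count in the 3 ∆*ve-1* light libraries and 26.4, 58.3 and 113 CPM in the libraries labelled double mutant, at least 566-fold higher on average than the 0.117 CPM that a floor of 3 counts per library allows (adjusted p = 2.88e-07). *sly-1* had no count in ∆*ve-1* and 9.31, 7.75 and 16.1 CPM in the other strain, at least 94.8-fold higher (adjusted p = 2.88e-07). These were also the 2 DEGs in darkness, where ∆*ve-1* held at most 2 counts per library of NCU09968 and 0 of *sly-1*. In wild-type light NCU09968 was 76.9, 45.8 and 127 CPM and *sly-1* was 21.7, 23.0 and 32.1 CPM, and in the light libraries labelled ∆*wc-1* 21.6, 28.7 and 27.8 CPM and 17.4, 8.88 and 5.74 CPM. In the whole table no other gene had at most 3 counts in each of the 6 ∆*ve-1* libraries and at least 20 in each other library, and none had this pattern in the libraries labelled double mutant. The 12 tested genes nearest on the chromosome, 6 on each side, were all counted in ∆*ve-1*, with 8.40 CPM as the lowest single light library, and none was a DEG. Whether the DNA is present in the ∆*ve-1* strain was not tested.

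**Figure D4:**
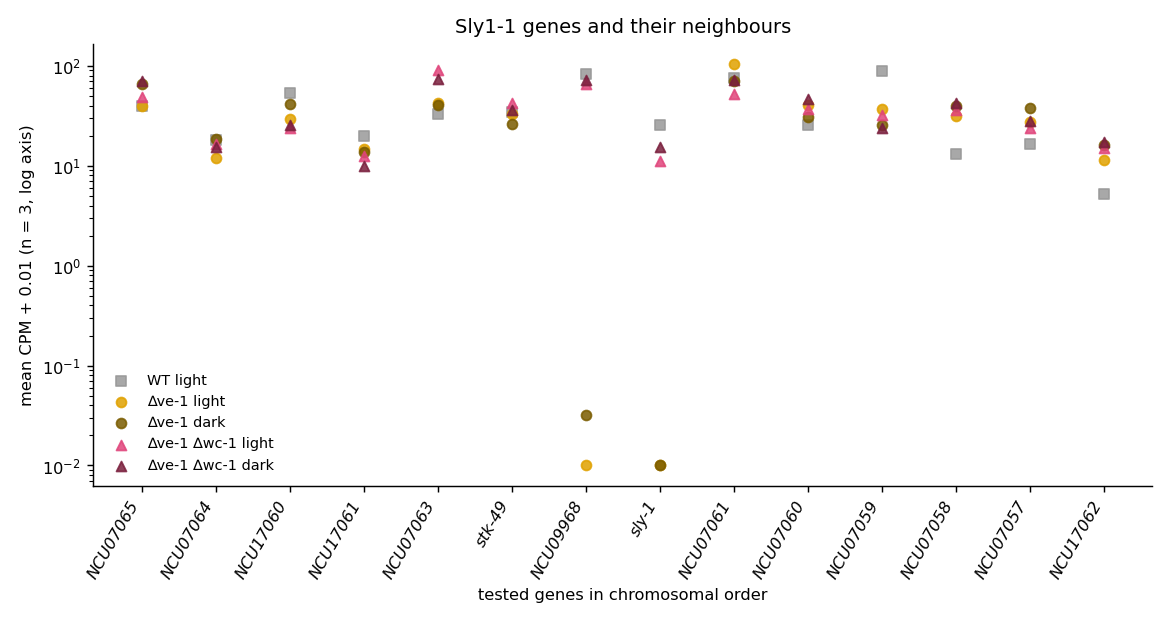
Mean CPM (log axis, 0.01 added, n = 3) of NCU09968, *sly-1* and the 6 tested genes on either side in chromosomal order, for 5 groups. The ∆*ve-1* means lie at or near 0 for NCU09968 and *sly-1* alone, while none of the neighbours is a DEG.

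Conidiation genes were lower by value without passing the test. None of the 13 genes of conidiation and clock control was a DEG, where 0.701% of all genes tested were. Of the 13, 11 had a negative fold change, 6 had all 3 libraries labelled double mutant below all ∆*ve-1* libraries (4.94% of all genes tested), 2 had them all above (5.17%), and the median was -1.36. *eas* (NCU08457), which encodes the hydrophobin of the conidial surface, was 22544, 27103 and 29169.5 CPM in ∆*ve-1* and 6817, 7061 and 6248 CPM in the libraries labelled double mutant (-1.97 ± 0.94, adjusted p = 0.598). The libraries of each strain lay close together and the groups did not overlap. DESeq2 on the 6 libraries alone gave adjusted p = 3.00e-05. *con-6* (NCU08769), expressed in conidia, was 7693, 23808 and 30919 CPM against 458, 855 and 2858 CPM (-3.90 ± 1.11, adjusted p = 0.152), and DESeq2 gave adjusted p = 0.00217 on all libraries and 3.49e-06 on the 6. *con-10* (NCU07325), another conidiation gene, was 2377, 8816 and 13807 CPM against 345, 1791 and 5238 CPM, with overlap (-1.76 ± 0.86, adjusted p = 0.618). *bli-4* (NCU08699), a blue-light-induced gene, was 608, 607 and 882 CPM against 46.9, 161 and 101 CPM (-2.76 ± 0.71, adjusted p = 0.0835). Of the 10 regulators of conidiation none was a DEG and the median was 0.06.

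The 6 asexual markers (*eas*, *con-6*, *con-8*, *con-10*, *con-13* and *fl*) summed to 38590 to 80998 CPM in ∆*ve-1* and to 8623 to 19049 CPM in the libraries labelled double mutant in light, ranges that did not overlap. None of the 6 was a DEG, and 1 had a positive fold change. In darkness the asexual sums were 18032 to 36268 CPM in ∆*ve-1* and 9327 to 19716 CPM in the libraries labelled double mutant, which overlapped. The 7 sexual markers summed in light to 453 to 1256 CPM and 434 to 964 CPM, which overlapped. The asexual sum differed between the same groups from which the DEGs were chosen, and its part in them was not tested. In RNA from whole tissue, fewer conidiating cells and less RNA per cell cannot be told apart.

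MAP kinase pathways carry signals for cell fusion and for female development in *N. crassa*. None of their listed genes was a DEG, but only 0.701% of all genes tested were, so lists of this size may well hold none. In the pheromone response pathway (13 genes, median 0.65) 11 fold changes were positive, in the cell wall integrity pathway (11 genes, median 0.50) 10, in the osmosensing pathway (7 genes, median 0.45) 5, and in the list of cell fusion and STRIPAK genes (13 genes, median 0.37) 11. Over all genes tested, 5032 of 9412 fold changes were positive. In darkness the medians of these lists, in the same order, were 0.35, 0.42, 0.0034 and 0.40, so the positive values were mostly not particular to light. *mak-2* (NCU02393), the MAP kinase of the pheromone response pathway, was 237, 125 and 121 CPM in ∆*ve-1* and 389.8, 199.6 and 277 CPM in the libraries labelled double mutant, with overlap (0.84 ± 0.43, adjusted p = 0.646). *mak-1* (NCU09842), that of the cell wall integrity pathway, was 107, 58.1 and 59.8 CPM against 166, 101 and 109.7 CPM, also with overlap (0.75 ± 0.34, adjusted p = 0.581). *pp-1* (NCU00340), the transcription factor below MAK-2, was 142, 94.6 and 55.9 CPM against 195, 152 and 174 CPM, without overlap (0.83 ± 0.35, adjusted p = 0.492). *adv-1* (NCU07392), a transcription factor of fusion and development, was 22.7, 20.9 and 16.05 CPM against 50.3, 20.2 and 26.5 CPM (0.70 ± 0.32, adjusted p = 0.558). The pheromone precursor gene *ccg-4* (NCU02500) was 455, 4177 and 3998 CPM against 758, 27974 and 12636 CPM, so that library 1 was low in both strains (2.26 ± 1.23, adjusted p = 0.682). In wild-type light *mak-2* was 212, 234 and 271 CPM and *mak-1* was 173, 120.4 and 92.4 CPM.

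Genes of sexual development gave no DEG among 17 (median 0.55, 13 positive), where 0.701% of all genes tested were DEGs. Their median in darkness was also 0.55. The fold changes in light ran from -2.95 to 2.16. Without overlap between the strains, 4 of the 17 were higher (5.17% of all genes tested) and 1 was lower (4.94%). *fsd-1* (NCU09915), a transcription factor of female sexual development, was 111, 42.9 and 41.4 CPM in ∆*ve-1* and 124, 135 and 412 CPM in the libraries labelled double mutant, without overlap (1.78 ± 0.62, adjusted p = 0.318). It was called by limma-voom with quality weights alone of the alternatives run (2.20, adjusted p = 0.0235). *sub-1* (NCU01154), a transcription factor needed for protoperithecia, was 79.4, 31.5 and 27.4 CPM against 93.5, 22.8 and 28.0 CPM (0.06 ± 0.50, adjusted p = 0.990). Of the 35 genes of sexual development that the study lists, which were chosen on ∆*ve-1* data of the same study, none was a DEG, 26 had a positive value and the median was 0.40, against 0.48 in darkness. None of the 9 melanin, tyrosinase and laccase genes (median 0.22), the 5 catalase and superoxide dismutase genes (median 0.27) or the 3 velvet complex genes (median -0.33) was a DEG.

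**Figure D5:**
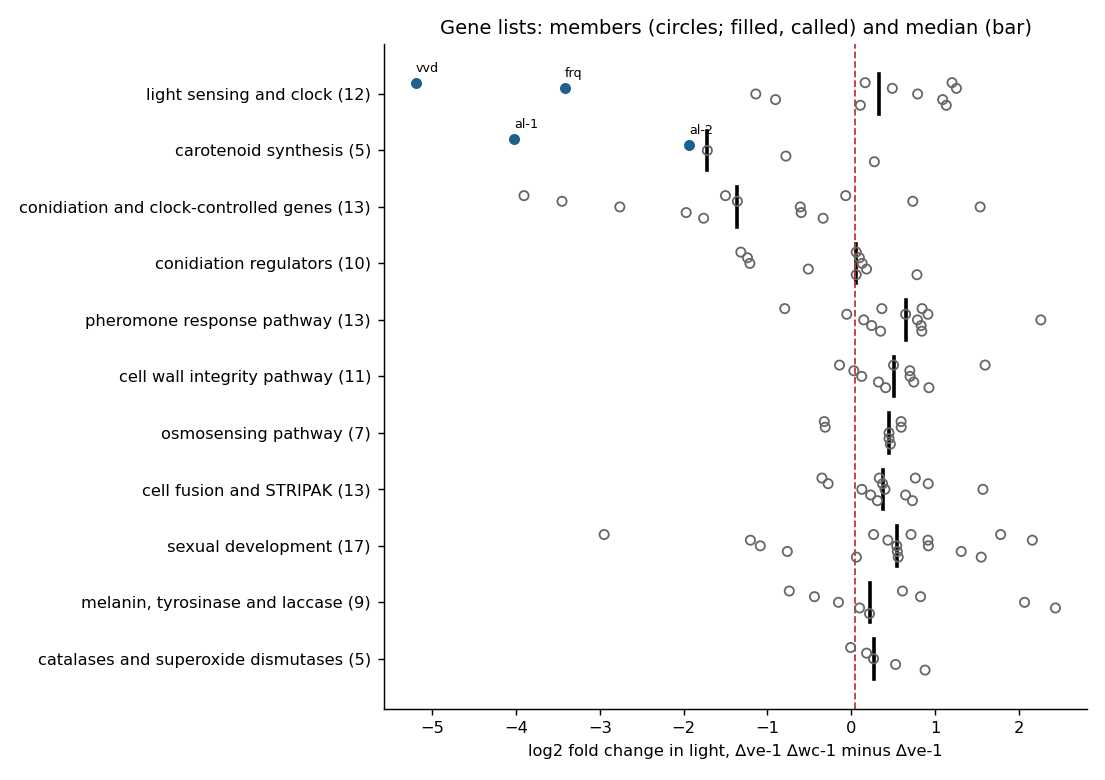
Log2 fold change in light (libraries labelled double mutant minus ∆*ve-1*, x axis) of the members of 11 gene lists, 1 circle per gene, filled where the gene was a DEG, with the list median as a bar and the median of all genes tested (0.05) as a dashed line. The 4 filled circles are *vvd*, *frq*, *al-1* and *al-2*, and the lists of the MAP kinase pathways have medians of 0.45 to 0.65 with no DEG (0.701% of all genes tested were DEGs).

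The number of DEGs depended on the libraries and on the fit. It was 32 without ∆*ve-1* library 2, 27 without library 3, and 105 without library 1 labelled ∆*wc-1* in light, which enters through the shared spread. Fitted within each group, the coefficient of variation between libraries was 0.43 in ∆*ve-1* in light and 0.57 in the libraries labelled double mutant in light. Over the 8 groups it ran from 0.21 to 0.77, both in libraries labelled ∆*wc-1*, in darkness and in light. edgeR on the 6 libraries alone called 13, with *vvd* (adjusted p = 0.0814) and *frq* (0.0534) just outside, while DESeq2 called 211 on all libraries, and 25 DEGs were called whichever of the 6 libraries was left out.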

How the data were processed

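RNA-seq counts of 24 libraries were used. The authors used fastp for trimming, STAR for alignment against OR74A (NC12) and strand-aware featureCounts for counting, and deposited raw counts, without normalization, for 10561 genes, all with a locus tag in the reference annotation (RefSeq), which gave the coordinates.

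Testing used edgeR 4.0.16 (R 4.3.3). Library sizes were scaled by TMM, filterByExpr over the 8 groups kept 9412 genes, and edgeR's quasi-likelihood test was run on all 24 libraries together, adjusted over these genes by Benjamini-Hochberg. SE is the absolute log2 fold change divided by the root of the F statistic. DEGs passed an adjusted p of 0.05 and exceeded 1 in log2 fold change, either way. CPM are TMM-scaled. Depth was 30246878 to 42697941 counts. A fold change against a group at 0 was computed against 3 counts in its shallowest library, which covers counting error only. The code was tested on simulated data.

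Genes named are *wc-1*, *ve-1*, the 12 DEGs of each direction that changed most (strains not overlapping, higher mean at least 10 CPM), DEGs of the gene lists, 14 fixed genes and the 3 lowest p of the light and dark difference. Other genes were picked after their values were seen. Members, lists and tests were chosen with earlier results of these data known. Alternatives were DESeq2 1.42.0, limma-voom (limma 3.58.1), RLE, other filters (none, or at least 5 CPM in at least 3 libraries), adjusted p alone, fewer libraries, covariates, a replicate block and leaving out libraries. Product names are from the study's annotation.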

Additional observations from a re-analysis of the deposited data

Results flagged for a closer look

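The difference between the strain effects in light and in darkness passed the test for 4 genes: NCU17113 (difference of log2 fold changes -8.90, adjusted p = 0.0253), NCU09210 (-6.18, 0.0480), NCU09650 (10.04, 0.0480) and *opt-3* (3.41, 0.0480). Of 23 alternative settings, NCU17113 was called in 15, *opt-3* in 10, NCU09210 in 9 and NCU09650 in 7. Groups of 3 libraries are too small for the test of single outlying libraries.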

How the results depend on the processing

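Counts of DEGs moved with the fit. In light the 66 DEGs became 211 with DESeq2 on all libraries and 202 on the 6 compared, 13 with edgeR on these 6, 31 with edgeR on the 12 libraries of both mutants, 271 with limma-voom and quality weights, and 131 with the share of the 10 most abundant genes as a covariate. Leaving out a compared library gave 27 to 66. With alternatives chosen after seeing the data, the even-count share as a covariate gave 184, and leaving out 1 other library gave 55 to 72, or 105 without library 1 labelled ∆*wc-1* in light. In darkness the 2 DEGs became 22 and 23 with DESeq2 (all libraries, then 6) and 117 with limma-voom. The 4 genes of the light and dark difference became 22 and 17 with DESeq2, 0 with edgeR on the 12 libraries under either setting, 7 with the covariate and 0 to 5 without 1 library. The 1069 wild-type light DEGs became 1692 with DESeq2 and 1629 with edgeR on the 6 wild-type libraries. The causes were not tested.

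Replicate numbers did not pair the libraries: same-numbered libraries correlated at 0.25, 0.23 and -0.34, and not every library correlated best with its own number. A replicate block gave 58 DEGs in light, 57 of them shared, 2 in darkness and 1 for the difference.

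Of 629 alternative values for the named genes, 570 kept direction and side of the threshold, 48 lost the call, 4 gained it and 7 reversed, all in genes that were not DEGs. Without 1 library the log2 fold change of *wc-1* ran from -0.19 (without library 3 labelled double mutant) to 2.32, that of *ve-1* from -0.96 to 0.080 and that of *sub-1* from -0.86 to 0.71, and *sub-1* was at -0.064 with the covariate. Among genes that were not DEGs, *con-6* was called by DESeq2 on all libraries and on the 6, *eas* by DESeq2 on the 6, and *fsd-1* by limma-voom.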
